A study of Homo sapiens with 5 samples.

Results

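The 9 genes studied here, of retinoid binding, synthesis, breakdown and response, were followed through the differentiation of WA09, a human embryonic stem cell line, toward GnRH neurons, the neurons that release gonadotropin-releasing hormone. The genes were CRABP1, CRABP2, ALDH1A1, ALDH1A2, ALDH1A3, DHRS3, RARA, RARB and CYP26A1. They were taken by symbol, and all 9 were listed with 1 Ensembl identifier each in every library, among 33538 genes for the late days and 36601 for the early ones. Single-cell RNA sequencing with 10x Genomics 3′ chemistry was available for 8 conditions of wild-type WA09 cells. D0 was the undifferentiated line. In D5_dSMADi and D10_dSMADi both SMAD branches were inhibited with dorsomorphin and SB431542 (dual SMAD inhibition, dSMADi) to make neural progenitors. D5_XAV939 and D10_XAV939 received the same inhibitors plus XAV939, a tankyrase inhibitor that blocks canonical Wnt signalling. D22, D24 and D26 followed dSMADi, then FGF8, then the Notch inhibitor DAPT, all without XAV939.

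Each condition was 1 library, with no replicate. No difference was tested and no p-value is given. Levels are the UMIs (unique molecular identifiers, 1 per captured molecule) of a gene summed over the cells of a group, scaled by the total UMIs of that group to CPM, with exact Poisson intervals. Ratios have exact binomial intervals, and shares of cells exact Clopper-Pearson intervals. All intervals are at 95%, cover counting error only, and understate the error of genes whose UMIs sit in a handful of cells. A 3′ library gives 1 UMI per molecule whatever its length, so CPM were compared between genes without a length correction. The libraries kept 1009 to 11056 cells with 58073098 to 130440502 UMIs, and the median depth per cell was 69455 UMIs at D0, 24290.5 to 31112.5 at D5 and D10, and 7180 to 12179 at D22 to D26. D0, D5 and D10 were tagged and run as 1 pool, while D22 to D26 were separate runs that differed from the pool in dissociation, Cell Ranger version and gene annotation, so no ratio was taken between the early and the late set. In the pool, the tag that led each condition's tag UMIs was the labelled one, with 95.1% to 95.6% of them. The D22, D24 and D26 libraries shared 27 to 37 barcodes by pairs. The tagged conditions shared 0, which follows from the split of 1 pool by tag and is no check on them. The pluripotency genes POU5F1, NANOG and LIN28A summed to 1794.3 CPM at D0 and to 390 to 553 CPM at D5 and D10.

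Retinoic acid is made from retinol by way of retinaldehyde. DHRS3 turns retinaldehyde back into retinol. ALDH1A1, ALDH1A2 and ALDH1A3 oxidise retinaldehyde to retinoic acid. CRABP1 and CRABP2 bind retinoic acid in the cytoplasm, where CRABP2 delivers it to the nucleus, and CYP26A1 breaks it down. RARA and RARB are nuclear receptors that act on DNA with a partner of the RXR family. RARB, CYP26A1 and DHRS3 are textbook targets that retinoic acid itself induces, and in the embryo the signal patterns the hindbrain and forebrain. The sources used here do not say whether the B27 supplement of the medium held a vitamin A precursor.

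The receptors bind a direct repeat of a short half-site. The repeat with 5 bases between the half-sites was searched as NGTTCANNNNNAGTTCA, on both strands, in RefSeq promoters from 250 bases before to 50 bases after each start (GRCh38.p14). It was in 12 of 35116 promoters (0.0342%). The 9 genes had 18 promoters in that table, and 2 of them held the repeat, 1 of RARB and 1 of CYP26A1. The same repeat with 1 or 2 bases between was in 0 of the 18. The 250 bases before these starts follow with the repeat in capitals, because RARB and CYP26A1 are genes on which the results turn, and the CRABP1 promoter is shown beside them because CRABP1 differed most steadily with IRX genes and had no such match. In RARB the repeat lay 53 to 37 bases before the start on the coding strand, and in CYP26A1 it lay 90 to 74 bases before the start on the opposite strand. A match is a description of letters and not of binding. Only half-sites ending in GTTCA were searched, so repeats of other half-sites would be missed. A promoter without a match may therefore still hold such a repeat.
RARB, chr3:25428013-25428262, plus strand: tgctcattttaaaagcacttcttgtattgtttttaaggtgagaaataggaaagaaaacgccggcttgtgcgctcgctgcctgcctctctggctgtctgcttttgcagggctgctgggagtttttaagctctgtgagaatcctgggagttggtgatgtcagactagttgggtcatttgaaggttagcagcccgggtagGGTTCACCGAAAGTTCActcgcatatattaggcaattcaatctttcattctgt
CYP26A1, chr10:93073643-93073892, plus strand: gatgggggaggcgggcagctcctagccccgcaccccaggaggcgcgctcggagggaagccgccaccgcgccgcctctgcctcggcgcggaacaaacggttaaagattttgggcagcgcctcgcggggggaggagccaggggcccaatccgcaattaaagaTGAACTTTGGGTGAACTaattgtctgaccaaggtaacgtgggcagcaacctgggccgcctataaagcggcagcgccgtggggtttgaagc
CRABP1, chr15:78340103-78340352, plus strand: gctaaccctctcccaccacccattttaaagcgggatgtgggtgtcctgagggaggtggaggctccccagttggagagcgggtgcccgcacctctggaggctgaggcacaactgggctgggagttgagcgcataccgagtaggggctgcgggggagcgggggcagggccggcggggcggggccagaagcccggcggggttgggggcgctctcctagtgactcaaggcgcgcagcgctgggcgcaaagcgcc

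CRABP1 was the most abundant of the 9 genes in every library. CRABP1 (ENSG00000166426) lies at chr15:78340353-78348225 on the plus strand of GRCh38 (GENCODE v44). Its level was 400 CPM at D0, 248 in D5_dSMADi, 292 in D5_XAV939, 303 in D10_dSMADi and 527 in D10_XAV939. At D22, D24 and D26 it was 96.4, 137 and 69.1 CPM. At the depth of each library 92.9% to 100% of cells held a CRABP1 UMI at D0 to D10, and 23.2%, 10.4% and 14.2% did at D22, D24 and D26, where cells were shallower. After each cell was thinned to 1500 UMIs the shares were 45.1% at D0, 31% to 34.6% at D5 and D10, and 7.54%, 4.78% and 4.76% at D22, D24 and D26. No cells that should lack CRABP1 were set apart in the pool, so its shares have no background share beside them. The 10% of cells with most of it carried 87%, 99.6% and 93.2% of its UMIs on these days.

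CRABP2 (ENSG00000143320, chr1:156699606-156705816, minus strand) rose from 57.6 CPM (95% interval 55.9 to 59.3) at D0 to 177 (174 to 180) in D5_dSMADi, a 3.07-fold difference. It was 166, 221 and 169 CPM in D5_XAV939, D10_dSMADi and D10_XAV939. The late levels were 71.3, 35.7 and 22.7 CPM at D22, D24 and D26. The order of days in the late set was thus D22 over D24 over D26, with intervals that did not overlap.

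The enzymes that make retinoic acid were scarce, at 5.13 CPM or less in all libraries, and were highest on different days. ALDH1A2 (ENSG00000128918, chr15:57953424-58497866, minus strand) had 1 UMI at D0, 64 UMIs (0.803 CPM) in D5_dSMADi and 33 (0.381 CPM) in D5_XAV939, and stayed at 0.231 CPM or less in the other libraries. ALDH1A1 (ENSG00000165092, chr9:72900671-73080442, minus strand) was 0.1 CPM in D5_dSMADi and 5.13 CPM in D10_dSMADi, a 51.1-fold rise (log2 5.68, 95% interval 4.68 to 6.90). It had at most 0.606 CPM elsewhere, and 0 UMIs at D24, where 3 counts would be 0.0428 CPM and the 95% interval reached 0.0526 CPM. ALDH1A3 (ENSG00000184254, chr15:100877714-100916626, plus strand) had 1.57 CPM at D0 and 1.92 CPM at D22, where 250 UMIs lay in 184 cells. At D24 ALDH1A3 had 0 UMIs in 9107 cells, and D26 had 1 UMI. With D24 set at the 3 counts that a count of 0 was taken to allow, D22 was 44.8-fold higher. The 95% interval of D24 reached slightly further, to 0.0526 CPM, and that of D22 was 1.69 to 2.17 CPM. ALDH1A2 shares its strand with part of LIPC-AS1, and the D22 gene list holds both. ALDH1A3 shares its strand with part of the noncoding gene ENSG00000272639, which the D22 gene list lacks. Whether molecules of that gene were counted as ALDH1A3 was not tested. The gene list of the pool was not searched for these overlaps.

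The gene of breakdown and the gene of reversal were both higher at D0 than at D5. CYP26A1 (ENSG00000095596, chr10:93073475-93077885, plus strand) was 10.4 CPM at D0, with UMIs in 35.2% of cells. In D5_dSMADi it was 0.289 CPM, 36.2-fold lower, and it was 0.161, 0.216 and 0.172 CPM in D5_XAV939, D10_dSMADi and D10_XAV939. CYP26A1 was 3.58, 2.69 and 3.16 CPM at D22, D24 and D26, in 1.44%, 0.889% and 0.859% of these shallower cells. With each cell thinned to 1500 UMIs the shares were 1.19% at D0 and 0.315%, 0.264% and 0.28% at D22, D24 and D26. CYP26A1 shares its strand with the noncoding gene ENSG00000285846 (chr10:93063646-93077424), which the D22 gene list lacks. Whether molecules of that gene were counted as CYP26A1 was not tested. DHRS3 (ENSG00000162496, chr1:12567910-12618210, minus strand) was 10.7 CPM at D0 and 2.45, 1, 3.8 and 0.327 CPM in D5_dSMADi, D5_XAV939, D10_dSMADi and D10_XAV939. At D22, D24 and D26 DHRS3 was 0.33, 0.57 and 0.0503 CPM on 43, 40 and 5 UMIs, and D26 was 11.3-fold lower than D24.

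The 2 receptors had different courses. RARA (ENSG00000131759, chr17:40309180-40357643, plus strand) ranged from 3.61 CPM in D5_XAV939 to 9.15 CPM at D26. RARB (ENSG00000077092, chr3:24687887-25597932, plus strand) was 0.237 CPM at D0, 0.69 in D5_dSMADi and 22.5 in D10_dSMADi, where 1148 of 2416 cells (47.5%) held a UMI. Between D5 and D10 under dSMADi RARB rose 32.7-fold (log2 5.03, 95% interval 4.64 to 5.44), while with XAV939 it was 0.611 CPM at D5 and 0.844 CPM at D10. At D22, D24 and D26 it was 1.64, 2.18 and 2.47 CPM. RARA shares its position with the antisense gene RARA-AS1, which lies on the other strand, and these counts are of the sense strand.

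**Figure D1:**
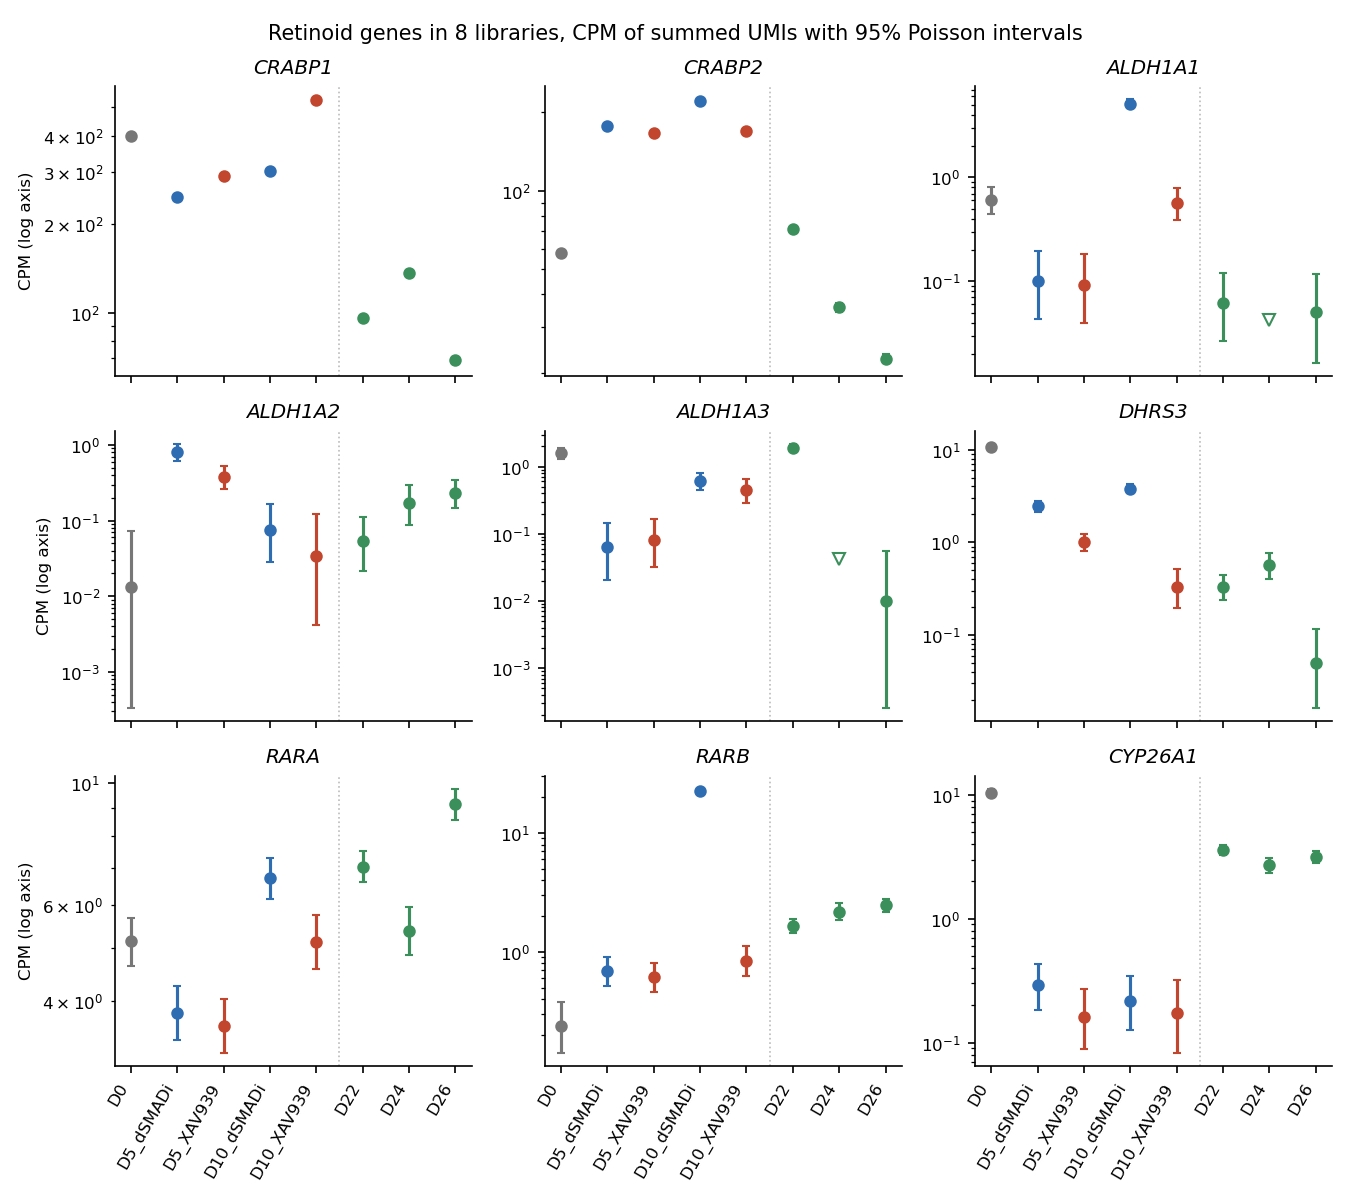
CPM of each of the 9 genes (log axis) in the 8 libraries, with 95% Poisson intervals. Grey is D0, blue dSMADi, red XAV939 and green D22 to D26, the dotted line parts the tagged pool from the later runs, and open triangles mark 0 UMIs at the limit that 3 counts give. RARB reached 22.5 CPM in D10_dSMADi and 0.844 CPM in D10_XAV939.

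RARB, DHRS3 and ALDH1A1, genes of retinoid response and synthesis, were lower with XAV939 at D10, a comparison that asks how blocking Wnt during the first days changes the progenitors. RARB was 22.5 CPM (21.5 to 23.6) in D10_dSMADi and 0.844 CPM (0.624 to 1.12) in D10_XAV939, 26.7-fold lower (log2 -4.74, 95% interval -5.18 to -4.33). DHRS3 was 3.8 CPM against 0.327 CPM, 11.6-fold lower (log2 -3.54, -4.29 to -2.87). ALDH1A1 was 5.13 CPM against 0.568 CPM, 9.03-fold lower (log2 -3.17, -3.73 to -2.66). CYP26A1, also named above as a target of retinoic acid, was 0.216 CPM against 0.172 CPM (log2 -0.33). That was less than 2-fold, on 17 and 10 UMIs. A gene was counted as past 2-fold when it had at least 20 UMIs over both groups, a ratio of 2 or more or 0.5 or less, and an interval that left out 1. By this rule 3 of the 8 genes that could be compared were lower and 0 higher, beside 5.44% of all 18437 genes compared that were lower and 3.08% that were higher. The median log2 ratio of the 8 was -0.42 and that of all genes -0.01. Markers of other cells also differed at D10. The neural crest and mesenchyme list (SOX10, FOXC1, FOXC2, FOXD3, PDGFRA, COL1A1, COL3A1, TWIST1 and PRRX1) summed to 15.5 CPM in D10_dSMADi with 9 of 9 detected and 5.7 CPM in D10_XAV939 with 7 of 9, where COL3A1 and PRRX1 were at 0. The epithelial genes EPCAM, KRT8, KRT18 and CDH1 summed to 273 and 177 CPM and the neuron markers STMN2, DCX, NCAM1 and RBFOX3 to 56.6 and 181 CPM, with 4 of 4 detected in both. In the undifferentiated cells of D0 the crest list summed to 48.8 CPM, with FOXD3 at 37.4 CPM, and the epithelial list to 974 CPM. These lists thus do not set crest or epithelial cells apart from undifferentiated cells here. The part of the crest and epithelial markers in these differences was not tested.

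RARB was found at about the same rate in cells of D10_dSMADi with and without the other 2 genes. After each cell of D10_dSMADi was thinned to 10000 UMIs, RARB was found in 19% of the 121 cells with ALDH1A1 and in 19% of the other 2295 cells. It was found in 19.8% of the 81 cells with DHRS3 and 18.9% of the others. Before thinning RARB was found in 50.5% of the 311 cells with ALDH1A1 and 47.1% of the others, and in 48.9% of the 270 cells with DHRS3 and 47.3% of the others. DHRS3 was found in 2 of the 121 thinned cells with ALDH1A1 (1.65%) and in 3.44% of the others, but before thinning in 40 of 311 (12.9%) and in 10.9% of the others. The order thus turned with the thinning, and no direction was read for this pair.

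At D5 the differences with XAV939 were smaller. DHRS3 was 2.45 CPM in D5_dSMADi and 1 CPM in D5_XAV939, 2.44-fold lower (log2 -1.29, -1.67 to -0.91). ALDH1A2 was 0.803 CPM against 0.381 CPM, 2.11-fold lower (log2 -1.08, -1.73 to -0.45) on 64 and 33 UMIs. These were 2 of 7 genes compared, with 0 higher, beside 2.26% of 18291 genes lower and 2.19% higher. RARB was 0.69 CPM and 0.611 CPM, with an interval of the log2 ratio from -0.75 to 0.40. CYP26A1 had 23 and 14 UMIs and its log2 ratio was -0.84 (-1.91 to 0.18), so its direction could not be told at this depth. The epithelial, crest and neuron lists summed to 284, 7.5 and 31.1 CPM in D5_dSMADi. In D5_XAV939 they summed to 194, 4.75 and 46.1 CPM. The part of these markers in the D5 differences was not tested.

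**Figure D2:**
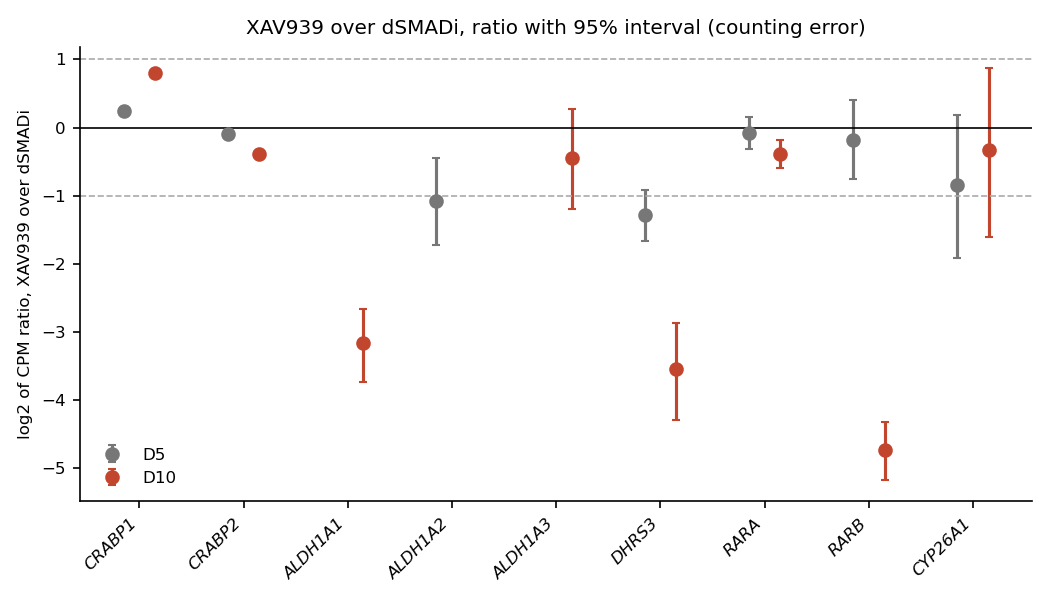
The log2 ratio of CPM, XAV939 over dSMADi, for each gene with at least 20 UMIs, at D5 (grey) and D10 (red), with 95% intervals and dashed lines at 2-fold. RARB, DHRS3 and ALDH1A1 lie at -4.74, -3.54 and -3.17 at D10.

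The binding proteins did not pass 2-fold. CRABP1 was 1.18-fold higher with XAV939 at D5 (log2 0.24, 0.21 to 0.26) and 1.74-fold higher at D10 (log2 0.80, 0.77 to 0.82). CRABP2 was 1.31-fold lower at D10 (log2 -0.39, -0.42 to -0.35).

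Most of the CRABP1 UMIs of D10_XAV939 lay in few cells. A gate of 20 or more UMIs of STMN2, a microtubule regulator of young neurons, was set after the levels had been seen. It held 17 of 2416 cells in D10_dSMADi (0.704%, 0.41 to 1.12) and 68 of 2168 in D10_XAV939 (3.14%, 2.44 to 3.96). Inside the gate CRABP1 was 9321.1 CPM (9004.6 to 9645.8) in D10_dSMADi and 9264.2 CPM (9121.9 to 9408.1) in D10_XAV939. Outside it CRABP1 was 263 CPM (259 to 266) and 256 CPM (252 to 260). The log2 ratios of XAV939 over dSMADi were -0.01 (-0.06 to 0.05) inside and -0.04 (-0.07 to -0.01) outside. The cells inside held 13.7% of the CRABP1 UMIs of D10_dSMADi and 52.8% of those of D10_XAV939. A cell inside the gate held a median of 171 CRABP1 UMIs in D10_dSMADi and 200 in D10_XAV939, where the highest cell held 548.

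The other genes split otherwise across this gate. CRABP2 was also high inside it, with 978 CPM in D10_dSMADi and 780 CPM in D10_XAV939, against 217 and 150 CPM outside. ALDH1A3 in D10_XAV939 had 22 of its 26 UMIs inside the gate (12.6 CPM, 7.9 to 19.1) and 4 outside (0.071 CPM), where D10_dSMADi had 48 UMIs outside and 0 inside. Outside the gate the ALDH1A3 log2 ratio was -3.11 (-5.04 to -1.66), past 2-fold, while over all cells it was -0.44 (-1.19 to 0.27). RARB, DHRS3 and ALDH1A1 had 0 UMIs in the 17 gated cells of D10_dSMADi, which allows up to 8.53 CPM. Without the gated cells their log2 ratios were -4.73, -3.58 and -3.14.

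**Figure D3:**
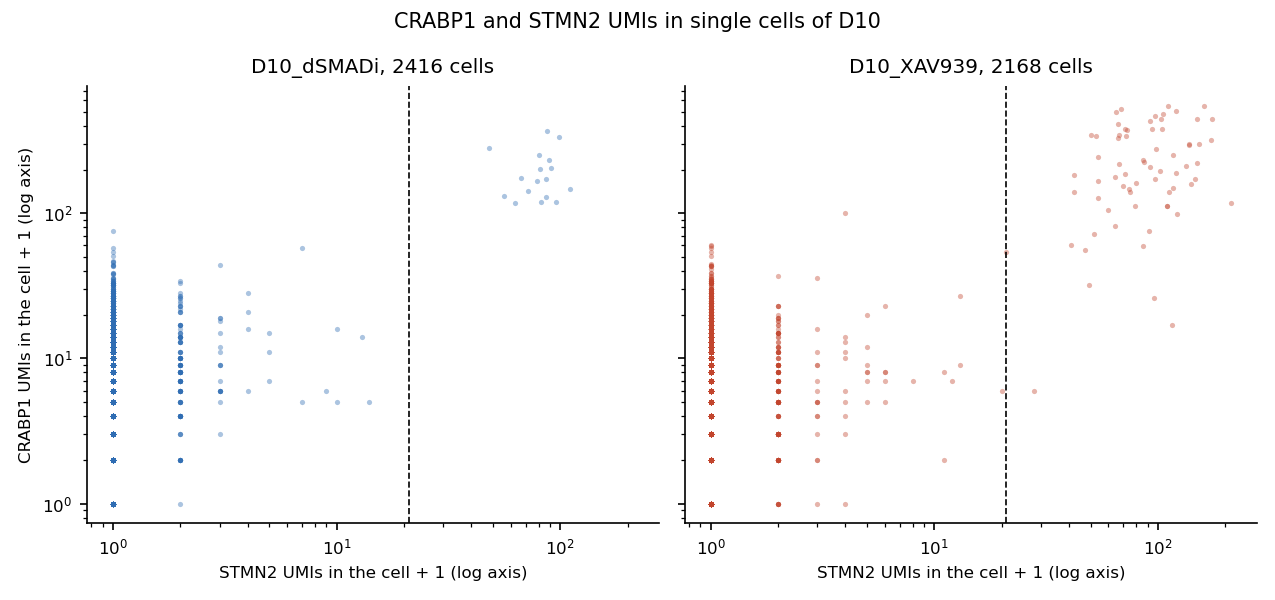
CRABP1 UMIs against STMN2 UMIs in each cell of D10_dSMADi (left, blue) and D10_XAV939 (right, red), both plus 1 on log axes, with the dashed line at 20 STMN2 UMIs. To the right of the line lie 17 cells of D10_dSMADi and 68 of D10_XAV939.

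Of 38 further genes of the retinoid pathway, 28 could be compared with XAV939 at each time. At D5 1 was higher and 2 were lower, beside 2.19% and 2.26% of all genes. LRAT, which stores retinol as esters, was 13.7 CPM with XAV939 and 0.916 CPM without (log2 3.90). RBP4, the carrier of retinol in plasma, was 0.0231 and 0.565 CPM (log2 -4.61), and BCO1, which cleaves beta-carotene, 0.381 and 1.43 CPM (log2 -1.91). At D0 LRAT, RBP4 and BCO1 were 13.4, 0.698 and 0.316 CPM. LRAT at D5 was thus near its D0 level with XAV939 and below it without. At D10 1 of 28 was higher and 1 lower, beside 3.08% and 5.44% of all genes. The higher gene was LRAT with 2.1 against 0.851 CPM (log2 1.30), and the lower one TGM2, a transglutaminase induced by retinoic acid, with 0.0689 against 0.419 CPM (log2 -2.60).

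At D22 to D26 the cells were split by IRX1, IRX2, IRX3 and IRX5, homeobox genes that pattern the neural tube. Cells with 1 or more UMIs of the 4 genes are called IRX-positive and those with 0 IRX-negative. IRX-positive cells were 1420 of 9523 at D22 (14.9%), 715 of 9107 at D24 (7.85%) and 589 of 11056 at D26 (5.33%). Their median depth was 13259 UMIs against 12030 at D22, 7355 against 7167 at D24 and 9496 against 8443 at D26.

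CRABP1 was the gene that differed most steadily across this split. The study had already named CRABP1 and NR2F1 as high in its IRX+ cluster of these same cells. The direction for CRABP1 was thus known beforehand, and the values below describe its size. It was 314 CPM (306 to 321) in IRX-positive and 51.7 CPM (50.3 to 53) in IRX-negative cells at D22, 6.07-fold higher (log2 2.60, 2.55 to 2.65). At D24 it was 964 CPM against 59.6 CPM, 16.2-fold higher (log2 4.02, 3.96 to 4.08). At D26 it was 527 CPM against 38.5 CPM, 13.7-fold higher (log2 3.77, 3.70 to 3.84). IRX-positive cells thus held 55.5%, 60.2% and 47.7% of all CRABP1 UMIs at D22, D24 and D26. In the few dividing cells of D24 (1 or more UMIs of MKI67 and of TOP2A) the CPM went the other way. CRABP1 was 94.9 CPM (63.6 to 136) in 24 IRX-positive and 392 CPM (323 to 472) in 26 IRX-negative ones. These were 29 UMIs in 8 cells and 113 UMIs in 9 cells. The shares of cells with CRABP1 were alike, 33.3% and 34.6%, so no direction was read on so few cells. In the dividing cells of D22 CRABP1 was 186 CPM in IRX-positive and 16.9 CPM in IRX-negative ones.

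The share of cells with CRABP1 moved the same way. After thinning each cell to 1500 UMIs, 27.7% of IRX-positive and 2.82% of IRX-negative cells of D24 held a CRABP1 UMI, and before thinning 39.2% and 7.92%. At D22 the thinned shares were 17.7% and 5.75%, and at D26 16.6% and 4.09%. Beside them stand DLX cells (2 or more UMIs over DLX1, DLX2, DLX5 and DLX6), with thinned shares of 2.43%, 2.48% and 1.17% at D22, D24 and D26 and median depths of 12312, 8351 and 9419.5 UMIs. Cells with 10 or more GNRH1 UMIs had 1.25% at D24 and 1.48% at D26, at median depths of 8277 and 9711 UMIs. The IRX-negative share was thus above that of the DLX cells at D22 and D26 and near it at D24. The IRX-negative cells of D24 were uneven all the same, with up to 129 CRABP1 UMIs in a cell and 261 CPM in those with a SOX2 UMI. Free RNA was not measured here.

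CRABP1 also rose with the number of IRX UMIs in a cell. At D22 it was 51.7, 82.4, 301, 720 and 592 CPM in cells with 0, 1, 2, 3 to 5, and 6 or more IRX UMIs. At D24 it was 59.6, 524, 1524.1, 1878.5 and 1627.3 CPM, and at D26 38.5, 314, 969, 978 and 549 CPM. The level was highest at 3 to 5 IRX UMIs. Its interval overlapped that at 2 at D26 (916 to 1043.7 and 896 to 1045.4 CPM) and, barely, that at 6 or more at D24 (1794.3 to 1965.7 and 1463 to 1804.9 CPM, the latter on 23 cells). At D22 and D26 the level was lower with 6 or more, on 266 and 89 cells.

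Each IRX gene marked cells with high CRABP1. At D24 cells with a UMI of IRX3 had 1858.5 CPM, cells with IRX5 1578.5 CPM, cells with IRX1 1550.2 CPM and cells with IRX2, the most frequent of the 4, 774 CPM. At D26 IRX1 cells had 1456.7 CPM and IRX2, IRX3 and IRX5 cells 483, 590 and 594 CPM.

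A minority of cells carried most CRABP1, and these were not all IRX-positive. At D24 214 cells with 10 or more CRABP1 UMIs held 85.1% of the library's CRABP1, and 136 of them (63.6%) were IRX-positive, beside 7.85% of all cells. At D26 they were 114 cells with 57.9% IRX-positive, and at D22 289 cells with 64.7% IRX-positive.

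CYP26A1, the enzyme of breakdown, was also higher in IRX-positive cells, but on few cells. At D22 it was 17 CPM (15.3 to 18.8) against 0.823 CPM (0.661 to 1.01), 20.6-fold higher (log2 4.37, 4.03 to 4.72), with 378 UMIs in 74 IRX-positive cells and 89 UMIs in 63 others. Without the 3 highest cells of each group it was 12.5 and 0.693 CPM. At D24 it was 8.33 CPM against 2.17 CPM (log2 1.94, 1.45 to 2.42), but its 50 UMIs in IRX-positive cells lay in 14 cells, 3 of which held 28, and without the 3 highest cells of each group it was 3.66 and 1.75 CPM. At D26 it was 13 CPM against 2.5 CPM (log2 2.38, 2.00 to 2.75), with 81 UMIs in 16 cells, 3 of which held 52, and without the 3 highest cells of each group it was 4.67 and 2.01 CPM. With 0, 1, 2, 3 to 5, and 6 or more IRX UMIs CYP26A1 was 0.823, 2.31, 26.1, 31 and 38.1 CPM at D22, with intervals that overlapped between neighbours from 2 UMIs on. It had no such order at D24, with 2.17, 8.56, 0, 2.01 and 72.7 CPM, the last on 16 UMIs in 23 cells, or at D26, with 2.5, 12, 45.3, 8.56 and 0 CPM. The counts of 0 were in 123 cells of D24 and 89 cells of D26, with intervals up to 3.51 and 3.39 CPM, so they were not told apart from the IRX-negative cells. When the gate was set on cells thinned to 1500 UMIs the log2 ratio became -2.20 at D24 and -1.51 at D26. The intervals were -7.51 to 0.29 and -4.56 to 0.35. Both held 0, so neither was past 2-fold and the direction could not be told under this gate.

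CRABP2 and DHRS3 each passed 2-fold on 1 day. CRABP2 was 49.2 CPM in IRX-positive and 75.8 CPM in IRX-negative cells at D22 (log2 -0.62, -0.72 to -0.53), 31.5 and 36.1 CPM at D24 (log2 -0.20, -0.42 to 0.02), and 81.7 and 18.8 CPM at D26, 4.34-fold higher (log2 2.12, 1.97 to 2.26). At D22 CRABP2 fell with the number of IRX UMIs, from 75.8 CPM at 0 to 18.4 CPM at 6 or more, and at D26 it rose, from 18.8 to 161 CPM. DHRS3 was 1.53 CPM against 0.0832 CPM at D22 (log2 4.20, 3.11 to 5.44), on 34 and 9 UMIs, and 0.5 against 0.577 CPM at D24. At D26 it had 0 UMIs in IRX-positive cells and 5 in the others.

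Neither receptor passed 2-fold across the split. RARA was 6.96 and 7.05 CPM at D22, 6.83 and 5.24 CPM at D24, and 9.33 and 9.14 CPM at D26 in IRX-positive and IRX-negative cells, with intervals of the log2 ratio from -0.28 to 0.23, -0.12 to 0.85 and -0.38 to 0.41. RARB had log2 ratios of 0.11, -0.42 and 0.06, each with an interval that held 0. ALDH1A3 at D22 was 1.26 CPM against 2.05 CPM (log2 -0.71, -1.33 to -0.14). ALDH1A1 and ALDH1A2 had too few UMIs for a ratio, apart from ALDH1A2 at D26 with 23 UMIs (log2 0.51, -2.62 to 2.55).

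By the same rule as above, 3 of 7 genes compared were higher in IRX-positive cells at D22 (CRABP1, DHRS3 and CYP26A1), 2 of 6 at D24 (CRABP1 and CYP26A1) and 3 of 6 at D26 (CRABP1, CRABP2 and CYP26A1). The share of all genes that were higher was 4.09%, 5.08% and 4.22% at D22, D24 and D26. The 9 genes had 0 lower, beside 1.11%, 1.26% and 0.826% of all genes. This count of 0 at D22 depended on the gate. CRABP2 was past 2-fold lower there with 2 or more IRX UMIs (log2 -1.39), with the gate on cells thinned to 1500 UMIs (-1.13) and with the gate without IRX2 (-1.42), and ALDH1A3 with 2 or more IRX UMIs (-2.44) and without IRX2 (-1.60). The share among the 9 was above the background each day, on few genes that were chosen with earlier results of these data known, so the counts are a description. CRABP1, counted on each day, was already reported by the study as high in its IRX+ cluster.

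**Figure D4:**
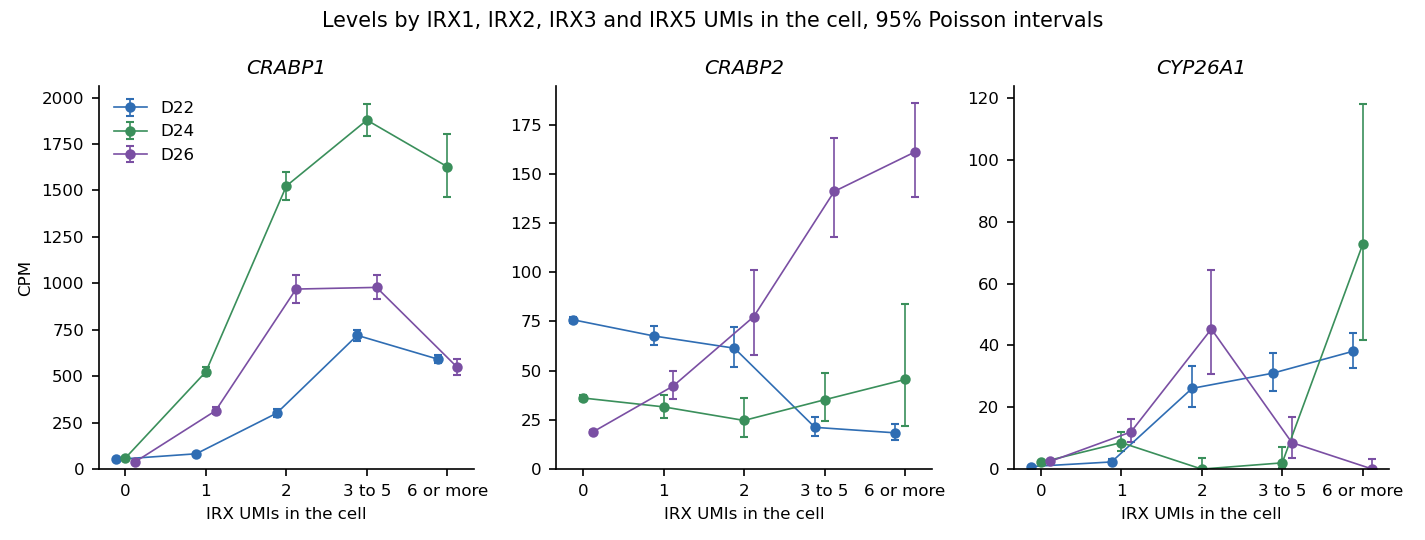
CPM of CRABP1, CRABP2 and CYP26A1 in cells with 0, 1, 2, 3 to 5, and 6 or more UMIs of the 4 IRX genes, at D22 (blue), D24 (green) and D26 (purple), with 95% Poisson intervals. CRABP1 climbed to 1878.5 CPM at D24, while CRABP2 fell at D22 and rose at D26 and CYP26A1 rose in order at D22 alone.

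NR2F1, NR2F2 and NAV2 of the pathway list were higher in IRX-positive cells on each of the 3 days, and most of the list did not pass 2-fold. Of the 38 genes, 25, 24 and 24 could be compared, and 3, 3 and 5 were higher in IRX-positive cells at D22, D24 and D26, with 0 lower, beside 4.09%, 5.08% and 4.22% of all genes that were higher. NR2F1, an orphan nuclear receptor, was 188 against 6.61 CPM at D22, 127 against 16 CPM at D24 and 218 against 36.7 CPM at D26. The study had named NR2F1 too as high in its IRX+ cluster, so its direction was known beforehand. NR2F2, its paralogue, had log2 ratios of 3.41, 2.73 and 3.23. NAV2, a neuron navigator known as a gene induced by retinoic acid, had 1.69, 3.55 and 2.82. At D26 RXRG, a partner of the receptors, was also higher (log2 1.47) on 17 UMIs in IRX-positive cells, as was RDH10 (log2 1.31, 14 UMIs), which oxidises retinol and is named after its value was seen. RXRA and RXRB, the other partners of the receptors, did not pass 2-fold on any of the 3 days, with log2 ratios of 0.00, 0.13 and 0.09 for RXRA and -0.09, -0.04 and 0.12 for RXRB at D22, D24 and D26.

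Markers of neural crest and mesenchyme moved with the IRX-positive cells. The 9 genes of that list summed to 20.3 CPM in IRX-positive and 4.69 CPM in IRX-negative cells at D22, 14.7 and 1.57 CPM at D24, and 5.31 and 0.611 CPM at D26. In IRX-positive cells 8, 5 and 6 of the 9 were detected at D22, D24 and D26, and in the more numerous IRX-negative cells 9, 8 and 7. SOX10 was at 0 on both sides at D24 and D26. On the IRX-positive side alone FOXC2 was at 0 at D22, FOXC1, FOXC2 and TWIST1 at D24, and FOXC2 and COL1A1 at D26, while FOXC1 was at 0 in the IRX-negative cells of D26. Without the cells that held a UMI of this list the CRABP1 log2 ratio was 2.49, 3.95 and 3.71 at D22, D24 and D26. The CYP26A1 log2 ratio at D22 was 2.90 without them, beside 4.37 with them. It was 1.58 beside 1.94 at D24, and 2.43 beside 2.38 at D26. The DHRS3 log2 ratio at D22 was 3.84 without these cells, beside 4.20 with them, and that of CRABP2 at D26 was 2.15 beside 2.12. The 4 neuron markers summed to 1310.5 and 1828 CPM at D22, 8651.8 and 10206.1 CPM at D24, and 9156.9 and 9598.8 CPM at D26 in IRX-positive and IRX-negative cells. POU5F1, NANOG and LIN28A summed to 10.4 and 8.19, 5.83 and 4.49, and 10.1 and 4.09 CPM at D22, D24 and D26. The choroid plexus and pigment epithelium genes TTR, CLIC6, FOLR1, RPE65, MITF and TYR summed to 0.988 and 1.11, 3.16 and 6.66, and 1.93 and 2.78 CPM. The part of the neuron, pluripotency and choroid plexus markers in the differences was not tested.

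The cells that held CYP26A1 were described on each day by gates on UMIs of marker genes, which may overlap. At D22 dividing cells (1 or more UMIs of MKI67 and of TOP2A) were 2282 of 9523 cells and included 45 of the 137 cells with CYP26A1, with 241 of its 467 UMIs (51.6%). Of these, 229 UMIs lay in 35 IRX-positive cells, and CYP26A1 was 24 CPM in the 471 IRX-positive and 0.39 CPM in the 1811 IRX-negative dividing cells. At D24, cells with 10 or more GNRH1 UMIs, 399 in all, had 25.4 CPM and 48.1% of the library's CYP26A1 UMIs. The 6537 cells with 2 or more UMIs over TBR1, a factor of glutamatergic neurons, and PPP1R17 had 0.345 CPM. Of the 81 cells with CYP26A1 at D24, 46 were in the GNRH1 gate, and 0 of the 50 dividing cells of that day held a CYP26A1 UMI, which allows up to 5.05 CPM.

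The GNRH1 gate held CYP26A1 in its IRX-negative cells too. Its 374 IRX-negative cells of D24 had 24.4 CPM of CYP26A1. At D26 the gate held 1214 cells with 12.8 CPM and 52.2% of the UMIs, and its 1151 IRX-negative cells also had 12.8 CPM. The 8510 cells of the TBR1 and PPP1R17 gate had 1.7 CPM that day, with 43% of the UMIs. Cells with 2 or more UMIs over DLX1, DLX2, DLX5 and DLX6, genes of GABAergic neurons, had 21.3 CPM at D24, 12.2 CPM at D26 and 1.29 CPM at D22. The gate of GNRH1 held 10 cells at D22, too few for a level.

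CRABP1 was lower in these cells than in the library as a whole. In the GNRH1 gate it was 12.6 CPM at D24 and 15.7 CPM at D26, and in the DLX gate 22.9, 33.9 and 12.6 CPM at D22, D24 and D26. The TBR1 and PPP1R17 gate had 138, 29.1 and 50.5 CPM. SOX2 cells, which include neural progenitors, had 83.4, 473 and 185 CPM, and of them the IRX-positive cells had 291, 1141.3 and 884 CPM.

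CRABP2 and RARA were higher in the DLX gate than in the TBR1 and PPP1R17 gate. CRABP2 was 80.5 CPM in the DLX gate and 31.1 CPM in the TBR1 and PPP1R17 gate at D24, and 67 and 9.27 CPM at D26, where the DLX gate held 52.3% of its UMIs. RARA was 12.4 against 4.49 CPM at D24 and 15 against 7.88 CPM at D26. RARB was 1.84 against 2.45 CPM at D24.

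**Figure D5:**
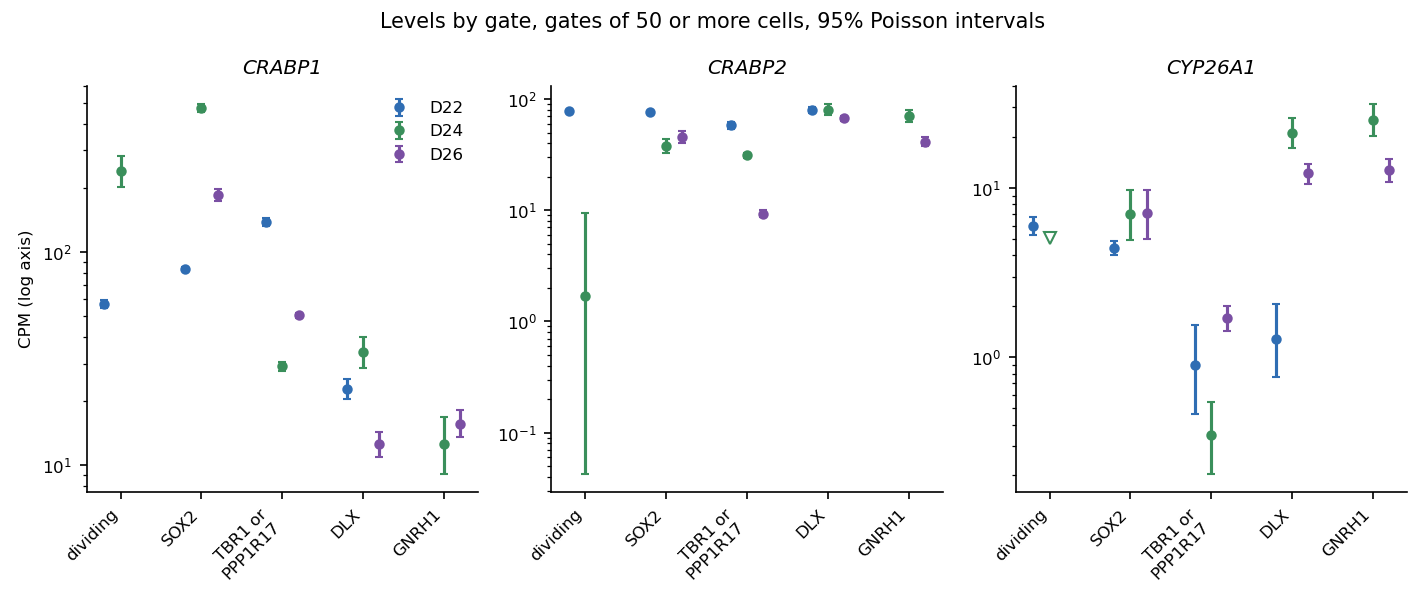
CPM (log axis) of CRABP1, CRABP2 and CYP26A1 in cells of 5 gates at D22 (blue), D24 (green) and D26 (purple), for gates of 50 or more cells, with 95% Poisson intervals and an open triangle at 0 UMIs. CYP26A1 was 25.4 CPM in the GNRH1 gate and 0.345 CPM in the TBR1 and PPP1R17 gate at D24, and 12.8 and 1.7 CPM at D26.

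The pattern of each abundant member was compared with all genes over 11 groups, namely the 5 tagged conditions and the IRX-positive and IRX-negative cells of the 3 late days. Likeness was Pearson's correlation of log2(CPM + 10) among 4967 genes that reached 50 CPM in some group, with no p since groups share libraries. The genes nearest to CRABP1 were IRX2 (r = 0.77), SPATS2L (0.75) and RAI14 (0.74). IRX2 is itself in the gate, so it was 0 in the IRX-negative groups by the way they were made. Its rank is therefore not a result about CRABP1. The genes nearest to CRABP2 were MTRF1L (0.95), TPBG (0.95) and CEMIP2 (0.94). Over the 11 groups MTRF1L ranged only from 33 to 55 CPM, TPBG from 2.46 to 198 CPM and CEMIP2 from 11.1 to 241 CPM. A high correlation thus does not mean a change of like size. These groups span the pool and the late runs. CRABP2 was 57.6 CPM at D0, 166 to 221 CPM in the 4 groups of D5 and D10 and 18.8 to 81.7 CPM in the 6 late groups. D0, of the same pool as D5 and D10, thus lay inside the late range. Between the pool and the late runs, a change with time cannot be told apart in these likenesses from the differences in dissociation, Cell Ranger version and annotation.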

How the data were processed

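The authors made read files with the mkfastq step of Cell Ranger, aligned reads to GRCh38 and counted UMIs with Cell Ranger, version 3.1 per the labels and, per the file headers, 3.1.0 for D22 to D26 and 6.1.2 for the tagged pool. They deposited UMI counts per gene and barcode, which are not normalized. The pool was dissociated with Accutase and D22 to D26 with papain per the study's methods, while the labels give papain for all. Here cells were kept by the study's limits: at least 30000 UMIs and 5000 genes at D0, 10000 and 3000 at D5 and D10, and 1500 and 1000 at D22 to D26, with a mitochondrial share below 10% (20% at D22 to D26). Complexity, log genes over log UMIs, was to be above 0.78 at D5, 0.82 at D10 and in the late days, and below 0.9 at D10. The limit of 0.85 given for D0 would have left 1 of 1292 barcodes and was not applied, which kept 1009. The limits kept 2419 of 2480 barcodes in D5_dSMADi, 2815 of 2919 in D5_XAV939, 2416 of 2778 in D10_dSMADi and 2168 of 2638 in D10_XAV939. The study's own cell counts for these conditions equal the barcodes before the limits, so its cells and those used here differ, and keeping all barcodes was an alternative. Its counts for D22, D24 and D26 equal the cells kept here, and that for D0 differs by 1. No doublet caller was run, and doublets were left in.

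The members and lists were chosen with earlier results of these data known. Named genes were the 9 members, at most 4 of 38 pathway genes per comparison (the largest ratios past 2-fold, to which RDH10 at D26 was added as the last of 5 past 2-fold) and the 3 most similar genes per member of 50 CPM or more. No test was run with 1 library per condition. A count of 0 was taken to allow up to 3 counts. Ratios with their intervals were checked on simulated counts. Python 3.11.15, numpy 2.4.6, scipy 1.17.1 and pandas 2.3.3, with matplotlib 3.10.9 for figures, were used.

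The conditions of the pool were read from the deposited matrices of each tag and checked against the tag counts in them. The tag library itself was not analysed here. Levels were summed UMIs over the total UMIs of the cells in a group, as CPM. Alternatives were no filter on cells, a stricter one, per-cell means, other scalings, leaving out the top 5% of cells by UMIs, and other IRX gates. Further ones, each leaving out one set of cells (STMN2, neural crest and mesenchyme, dividing, or GNRH1), were chosen after seeing the data.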

Additional observations from a re-analysis of the deposited data

Results flagged for a closer look

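CRABP2 went opposite ways with the IRX split on 2 days. Its log2 ratio of IRX-positive over IRX-negative cells was -0.62 at D22 and 2.12 at D26, each from 1 library, and the difference between the days was not tested. At D26 the DLX gate held 52.3% of the CRABP2 UMIs and 15.5% of the cells. Its cells were 102 of 589 IRX-positive and 1608 of 10467 IRX-negative cells. They held 127 of 508 and 1055 of 1754 CRABP2 UMIs of these groups. The part of the DLX cells in the D26 ratio was not tested.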

How the results depend on the processing

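The CRABP1 log2 ratio between IRX-positive and IRX-negative cells stayed higher under every alternative run. At D22 (2.60) it was 2.72 as a per-cell mean, 2.70 without the top 5% of cells by UMIs, 3.46 with 2 or more IRX UMIs, 2.82 matched by depth, 3.19 without IRX2 and 2.49 without neural crest marker cells. At D24 (4.02) it was 3.88 without a filter, 4.08 with the stricter one, 4.15 without the top 5%, 4.83 with 2 or more IRX UMIs, 3.19 with the gate on thinned cells, 3.85, 4.40, 3.76 and 3.80 without IRX1, IRX2, IRX3 and IRX5, 3.95 without crest marker cells and 4.12 without dividing cells. At D26 (3.77) it was 3.96 with the stricter filter, 3.89 as a per-cell mean, 4.38 with 2 or more IRX UMIs, 3.56 with the thinned gate, and 3.49 and 4.18 without IRX1 and IRX2. The number of the 9 genes past 2-fold at D22 went from 3 to 5 with 2 or more IRX UMIs and without IRX2, where CRABP2 and ALDH1A3 were lower, and to 4 with the thinned gate, where CRABP2 was lower. With that gate it went from 2 to 1 at D24 and from 3 to 2 at D26. The CYP26A1 log2 ratio was then -2.20 and -1.51, with intervals too wide to tell a direction. With XAV939 the CRABP1 log2 ratio was 0.27 as a per-cell mean and 0.19 under median-of-ratios scaling at D5 (0.24). At D10 (0.80) it was 0.68 without a filter, 0.76 without mitochondrial and ribosomal genes and -0.04 without cells of 20 or more STMN2 UMIs, where the number past 2-fold went from 3 to 4 with ALDH1A3 lower. The cause of these shifts was not tested. No paired analysis was possible because each condition is 1 library and no result comes from a test. ALDH1A1, ALDH1A2 and ALDH1A3 held under 20 UMIs in most groups of the late days, which limits what can be compared for them.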
